A study of Homo sapiens with 2 samples.

Results

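The genes described here encode death receptors, their ligands and adaptors, the caspases and the proteins that restrain caspases. The set holds 36 genes, taken by symbol from the deposited table, each with 1 probe set, out of 20258 named genes in that table. AGS, an established human cell line derived from an adenocarcinoma of the stomach, was treated with LBH589 at 100 nM for 24 h and compared with cells of the same line whose label gives the treatment as none. LBH589 is panobinostat, an inhibitor of several classes of histone deacetylase. Each condition had 1 expression array. A culture time or a vehicle for the untreated cells is not given in the sources used here.

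A death receptor is a cell surface protein of the tumour necrosis factor (TNF) receptor superfamily whose inner part carries a death domain. When its ligand binds, the receptor gathers adaptors such as FADD or TRADD, and FADD draws in an initiator caspase, a protease that is switched on by being brought close to its own kind and that then cleaves effector caspases. CFLAR blocks the initiator step, and inhibitor of apoptosis proteins (IAPs) act on caspases or on the ubiquitin marks of the receptor complex. The kinase RIPK1 sits where the TNF receptor pathway divides into survival signalling, caspase activation and necroptosis, a caspase-independent death carried out by RIPK3 and MLKL.

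Values are deposited intensities on a linear scale in arbitrary units. With 1 array per condition, no difference has an error, a replicate check or a test, and this number of arrays limits the precision. A gene was taken as above background where its brighter array reached 4.88, which is percentile 95 of 453 probe sets for olfactory receptors, which a gastric line has no known use for. An intensity below that level was raised to it before a fold was taken, so such a fold is a lower bound and is written as at least. Size alone decides whether a gene is called higher or lower, with the threshold at 2-fold. In the log2 ratio of LBH589 over control, the same olfactory probe sets varied with an SD of 0.18. The median intensity over all probe sets was 4.77 with LBH589 and 4.84 without.

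Epithelial markers were present on both arrays. Of 15 epithelial markers, 14 were above background, among them the keratins KRT8, with 2292 in LBH589-treated cells and 1967 in control cells, and KRT18, with 632 and 634 in that order. The adhesion gene EPCAM had 337 in LBH589-treated cells and 577 in control cells, and CDH1 had 9.72 and 11.4. Past 2-fold were KRT19, with 1171 in LBH589-treated cells and 566 in control cells (2.07-fold higher), and 2 lower genes. The mucin MUC1 had 37.8 in LBH589-treated cells and 211 in control cells (5.58-fold lower), and the cadherin CDH17 had 31.0 in LBH589-treated cells and 175 in control cells (5.66-fold lower). Of 9 markers of immune cells, 3 were above background. These were LYZ, with 451 in LBH589-treated cells and 706 in control cells, NKG7, with 7.35 and 7.86, and CSF1R, with 10.9 and 4.06, which is at least 2.23-fold higher. The leukocyte gene PTPRC was not above background, with 2.95 in LBH589-treated cells and 2.76 in control cells. The part of such markers in the results below was not tested. Of 9 fibroblast and endothelial markers, COL1A1 alone was above background, with 38.8 in LBH589-treated cells and 26.6 in control cells.

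LBH589-treated cells had less mRNA for 3 of the 6 death receptors of the set (FAS, TNFRSF10A and TNFRSF1A). Lower too were the effector caspase gene CASP6 and the restraining genes XIAP and CFLAR. LBH589-treated cells had more mRNA for BIRC3, an IAP gene, and for the kinase gene RIPK1. In RNA from a whole culture, less mRNA per cell and fewer cells with the transcript cannot be told apart. Of the 36 genes, 27 were above background. Among these, 2 were at least 2-fold higher (7.41%), where the share over all 12614 genes above background was 6.94%. Another 9 were at least 2-fold lower (33.3%), where the share over all genes was 7.06%. In both directions together that is 11 of 27, against 14.0% of all genes, and 16 lay within 2-fold. The share of higher genes was thus near that of all genes, and the share of lower genes was above it. CFLAR, CASP4 and CASP10 were above background in the control cells only. They entered the count through the control array, so their ratio had to be below 0. Without them, 24 genes were above background on both arrays, with 2 genes 2-fold higher (7.05% of all genes under this filter) and 7 genes 2-fold lower (7.47% of all genes) among them. The 27 genes had a median log2 ratio of -0.47, and the 24 above background on both arrays had one of -0.29, where all genes had 0.01 in each case. That difference is not a test, and the size of the median moved with the treatment of dim signals.

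**Figure D1:**
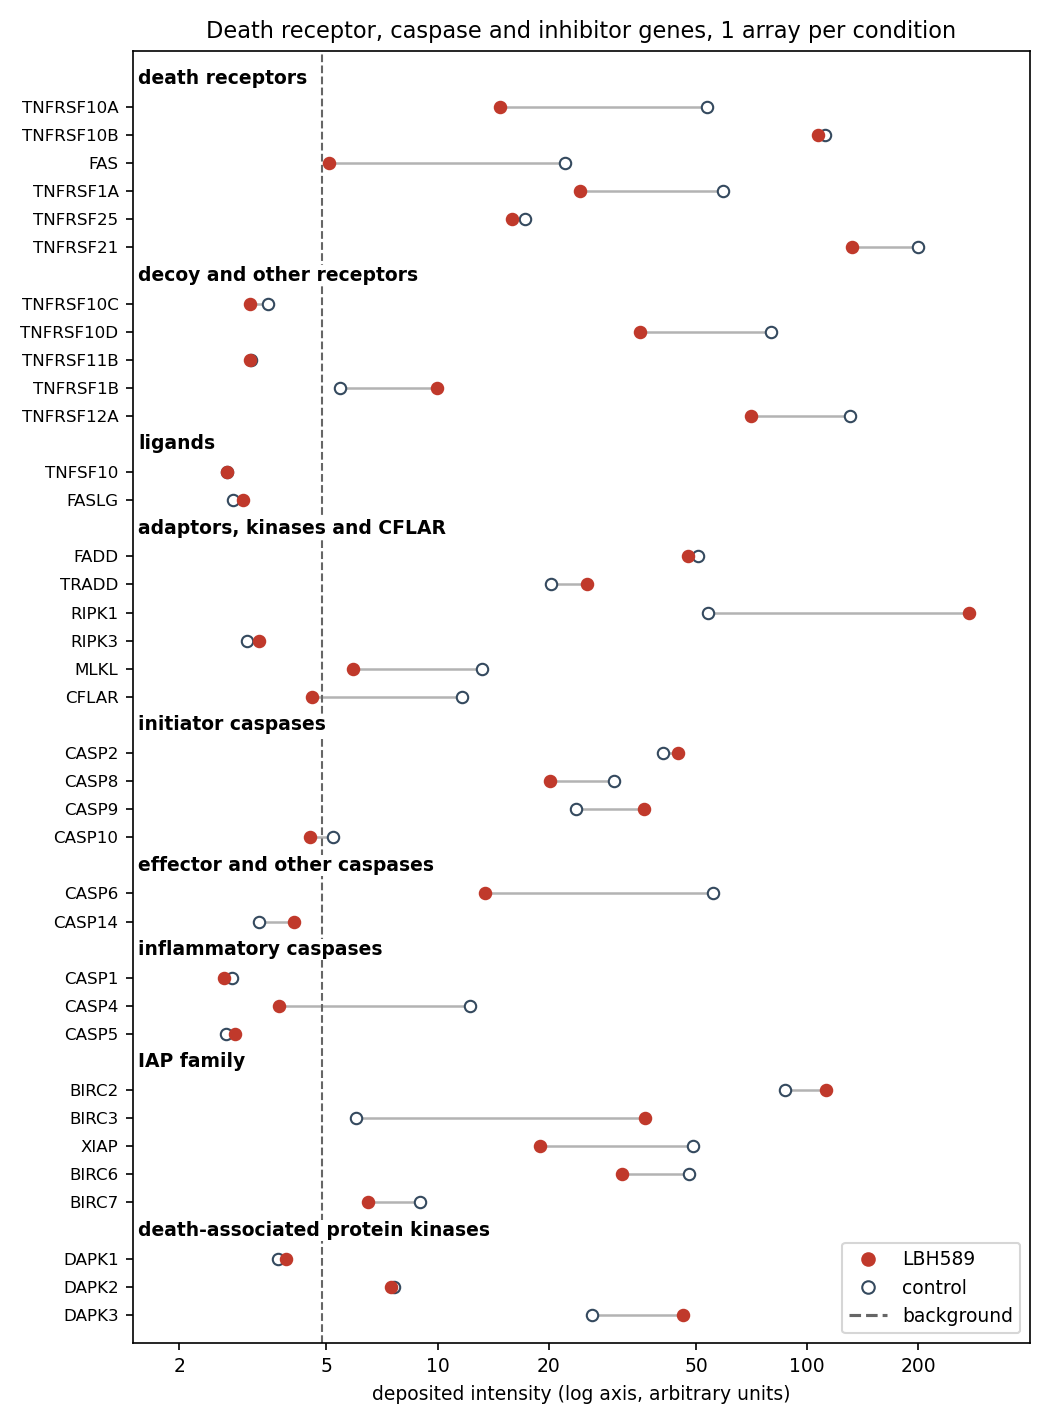
Deposited intensity of each of the 36 genes (log axis, arbitrary units) in LBH589-treated cells (filled circles) and control cells (open circles), by role, with 1 array per condition and the background level of 4.88 as a dashed line. In LBH589-treated cells, RIPK1 and BIRC3 lie far to the right of their own control values. FAS, TNFRSF10A and CASP6 lie far to the left of theirs.

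The 6 death receptors of the set were all above background. All 6 had a log2 ratio below 0, from -2.13 for FAS to -0.06 for TNFRSF10B. Over all genes above background, 6184 of 12614 had one below 0. The ratios of TNFRSF10B and TNFRSF25 (-0.12) were smaller in size than the olfactory SD of 0.18. FAS, the receptor for FAS ligand, had an intensity of 5.07 in LBH589-treated cells and 22.2 in control cells, which is 4.37-fold lower. The LBH589 value lies just above background, so little FAS signal was left on that array. Of all genes above background, 0.967% had a lower log2 ratio than FAS.

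TNFRSF10A and TNFRSF10B are the receptors through which the ligand TRAIL starts apoptosis, and they differed in these cells. TNFRSF10A had 14.8 in LBH589-treated cells and 53.6 in control cells, 3.62-fold lower. TNFRSF10B had 107 and 112 in that order, a ratio close to 1. The arrays thus show a lower signal for TNFRSF10A beside a near-equal signal for TNFRSF10B.

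TNFRSF1A, the main receptor for TNF, was 2.44-fold lower, with 24.3 in LBH589-treated cells and 59.2 in control cells. TNFRSF21, also called death receptor 6, had 133 in LBH589-treated cells and 199 in control cells, a log2 ratio of -0.59 that falls short of 2-fold. TNFRSF25, a receptor best known from T cells, had 15.9 in LBH589-treated cells and 17.2 in control cells.

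Decoy receptors bind a ligand without passing on a full death signal. TNFRSF10D, a TRAIL decoy with a truncated death domain, was 2.26-fold lower, with 35.3 in LBH589-treated cells and 79.8 in control cells. TNFRSF10C, a TRAIL decoy tethered to the membrane by a lipid anchor, was not above background in either condition, at 3.11 in LBH589-treated cells and 3.48 in control cells. Nor was TNFRSF11B, the secreted decoy osteoprotegerin, at 3.11 in LBH589-treated cells and 3.13 in control cells. Of the 4 TRAIL receptors of the cell surface, 2 were therefore lower, 1 was near equal and 1 was at background.

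A pair of receptors without a death domain lay just inside 2-fold, in opposite directions. TNFRSF1B, the second TNF receptor, had 9.96 in LBH589-treated cells and 5.44 in control cells (1.83-fold higher). TNFRSF12A, the receptor for the cytokine TWEAK, had 70.7 in LBH589-treated cells and 130 in control cells (1.85-fold lower). The gene nearest to the threshold on the far side was MLKL at 2.23-fold, so no member lay between 1.85-fold and 2.23-fold.

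Neither death ligand of the set gave a signal above background. TNFSF10, which encodes TRAIL, had 2.69 in both conditions, and FASLG, which encodes FAS ligand, had 2.97 in LBH589-treated cells and 2.80 in control cells. These values give no ratio, and a transcript too rare for this array would look the same.

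Among adaptors and kinases, RIPK1 stood out. It had an intensity of 275 in LBH589-treated cells and 53.8 in control cells, 5.11-fold higher, and 0.531% of all genes above background had a higher log2 ratio. FADD, the adaptor that links death receptors to initiator caspases, had 47.5 in LBH589-treated cells and 50.6 in control cells. TRADD, the adaptor of the TNF receptor, had 25.4 in LBH589-treated cells and 20.3 in control cells, so both adaptors lay well within 2-fold.

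Necroptosis genes act downstream of RIPK1. RIPK3, the kinase that phosphorylates MLKL, was not above background, at 3.28 in LBH589-treated cells and 3.05 in control cells. MLKL, which permeabilises the plasma membrane, was 2.23-fold lower, with 5.89 in LBH589-treated cells and 13.1 in control cells. CFLAR, the catalytically inactive relative of caspase-8 known as c-FLIP, had 4.57 in LBH589-treated cells and 11.7 in control cells. Its LBH589 value was below background, and the decrease was at least 2.39-fold.

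Initiator caspases lay within 2-fold in each case. CASP8, the initiator of the death receptor pathway, had 20.2 in LBH589-treated cells and 30.1 in control cells (log2 ratio -0.58). CASP9, the initiator activated by the mitochondrial apoptosome, had 36.2 in LBH589-treated cells and 23.7 in control cells (log2 ratio 0.61). CASP2, whose activating platform involves the protein PIDD1, had 44.7 in LBH589-treated cells and 40.8 in control cells. CASP10, a close relative of caspase-8, was at the edge of background, with 4.51 in LBH589-treated cells and 5.20 in control cells. The receptor-linked CASP8 and the mitochondrial CASP9 thus lay on opposite sides of 0.

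CASP6 had the largest decrease of the caspases measured above background on both arrays. This effector caspase cleaves nuclear lamins, and its intensity was 13.4 in LBH589-treated cells and 55.7 in control cells, 4.15-fold lower. Of all genes above background, 1.09% had a lower log2 ratio. CASP14, a caspase of skin differentiation, was not above background, at 4.08 in LBH589-treated cells and 3.29 in control cells.

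Of the inflammatory caspases, which cut gasdermins and cytokine precursors, CASP4 alone was above background. CASP4, the sensor of intracellular bacterial lipopolysaccharide, had 3.72 in LBH589-treated cells and 12.3 in control cells, at least 2.51-fold lower. CASP1 had 2.64 in LBH589-treated cells and 2.77 in control cells, and CASP5 had 2.83 and 2.67 in that order. No ratio is given for those genes.

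The IAP family divided by gene. BIRC3 (cIAP2), a ubiquitin ligase of TNF receptor complexes, had 36.3 in LBH589-treated cells and 6.01 in control cells. That is 6.05-fold higher, the largest change of the 36 genes, from a control value close to background. Of all genes above background, 0.381% had a higher log2 ratio. BIRC2 (cIAP1), its nearest relative and its neighbour in the genome, had 113 in LBH589-treated cells and 87.2 in control cells, 1.29-fold higher.

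XIAP, the IAP known for direct inhibition of caspases, went the other way. It was 2.60-fold lower, with 18.9 in LBH589-treated cells and 49.2 in control cells. BIRC6, a very large ubiquitin-conjugating IAP, had 31.5 in LBH589-treated cells and 47.8 in control cells (log2 ratio -0.60). BIRC7 (livin), an IAP first described in melanoma, had 6.48 in LBH589-treated cells and 8.96 in control cells. Of the 5 IAP genes of the set, 1 was thus 2-fold higher, 1 was 2-fold lower and 3 were within 2-fold. Over all genes, 6.94% were higher and 7.06% lower.

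Death-associated protein kinases are calcium/calmodulin-regulated kinases or their relatives, linked to cell death and autophagy. DAPK3, also called ZIPK, was the only one of the 3 with a sizeable ratio, with 46.1 in LBH589-treated cells and 26.1 in control cells (1.77-fold higher, short of the threshold). DAPK2 had 7.47 in LBH589-treated cells and 7.64 in control cells. DAPK1, a gene often silenced by promoter methylation in tumours, was not above background, at 3.90 in LBH589-treated cells and 3.71 in control cells.

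**Figure D2:**
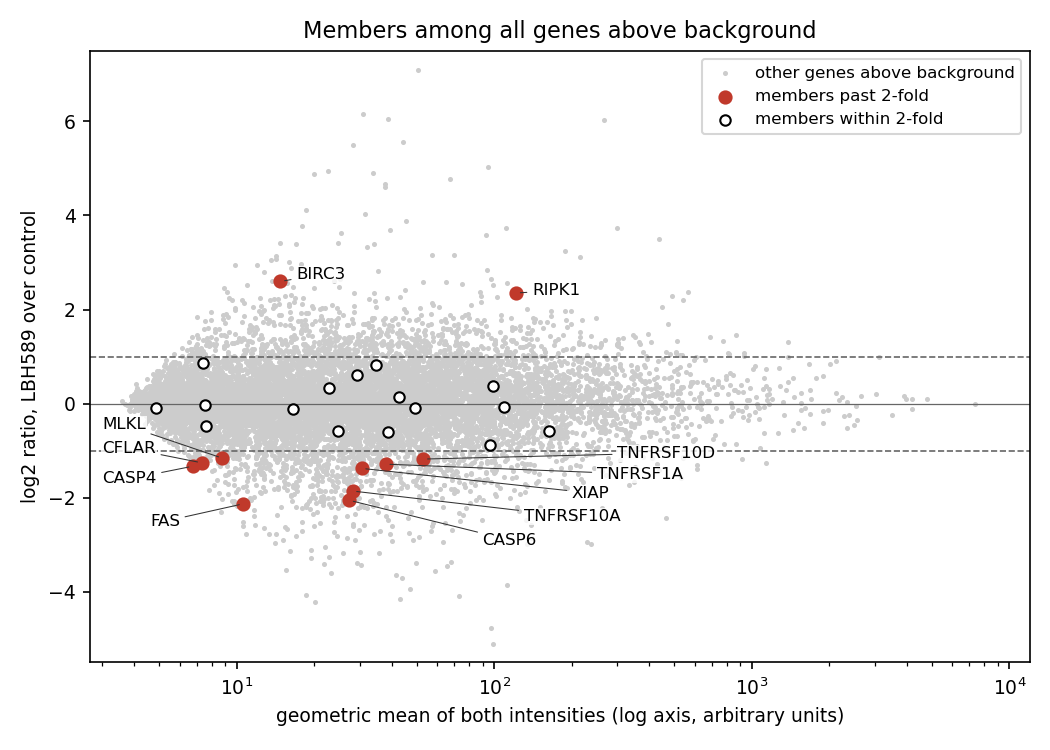
Log2 ratio of LBH589 over control against the geometric mean of both intensities (log axis, arbitrary units) for all 12614 genes above background (grey), with the 27 genes of the set above background marked, filled past 2-fold and open within 2-fold (dashed lines). Ratios use values raised to background, and no other member lies near RIPK1 or BIRC3 on the high side.

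Promoter sequences are shown for the 2 higher genes and for the pair of lower genes with the lowest ratios, since these carry the contrast within the set. Each is the stretch of 250 bases before the most upstream start of the gene in RefSeq (build GRCh38.p14), read 5′ to 3′ on the strand of the gene. The deposited table does not name a build. Capitals mark matches on either strand to the NF-kB consensus (10 bases), GGGCGG (the core of a GC box, bound by SP1-family factors), CCAAT or TATAAA. The positions are chr6:3063717-3063966 for RIPK1 (plus strand), chr11:102317234-102317483 for BIRC3 (plus strand), chr10:88990548-88990797 for FAS (plus strand) and chr4:109703446-109703695 for CASP6 (minus strand).
RIPK1: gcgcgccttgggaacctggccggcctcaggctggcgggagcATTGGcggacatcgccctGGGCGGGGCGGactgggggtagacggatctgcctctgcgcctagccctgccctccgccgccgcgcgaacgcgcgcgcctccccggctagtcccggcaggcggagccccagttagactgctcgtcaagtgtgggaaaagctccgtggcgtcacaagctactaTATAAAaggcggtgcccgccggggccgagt
BIRC3: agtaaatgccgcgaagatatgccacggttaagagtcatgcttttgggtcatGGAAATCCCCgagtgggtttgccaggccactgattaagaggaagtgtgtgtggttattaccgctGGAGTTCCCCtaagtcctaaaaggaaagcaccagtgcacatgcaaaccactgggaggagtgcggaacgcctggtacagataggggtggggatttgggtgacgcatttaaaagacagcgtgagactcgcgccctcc
FAS: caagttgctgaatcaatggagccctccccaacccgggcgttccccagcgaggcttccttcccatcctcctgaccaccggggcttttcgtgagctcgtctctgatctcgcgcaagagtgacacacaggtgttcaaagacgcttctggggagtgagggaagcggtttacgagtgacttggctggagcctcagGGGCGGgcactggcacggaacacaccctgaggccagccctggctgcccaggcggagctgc
CASP6: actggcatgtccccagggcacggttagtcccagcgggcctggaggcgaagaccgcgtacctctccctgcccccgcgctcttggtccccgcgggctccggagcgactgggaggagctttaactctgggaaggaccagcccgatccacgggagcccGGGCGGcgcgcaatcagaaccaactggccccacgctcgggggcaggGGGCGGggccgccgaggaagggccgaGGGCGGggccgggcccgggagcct

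These stretches differ in the motifs they hold. The BIRC3 stretch has 2 matches to the NF-kB consensus and none to the other motifs. As printed on the strand of the gene, these are GGAAATCCCC, starting 199 bases before the start, and GGAGTTCCCC, starting 135 bases before it. Both match the consensus on the opposite strand. The GC content of the BIRC3 stretch is 52.4%. RIPK1 has 2 GGGCGG matches that share a base, 1 CCAAT match on the opposite strand and TATAAA starting 30 bases before the start, with 70.4% GC and no NF-kB match. CASP6 has 3 GGGCGG matches and 74.0% GC, and FAS has 1 GGGCGG match and 62.8% GC. The 2 higher genes thus share none of these motifs.

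Of 35116 RefSeq promoter stretches of this length, 9.96% hold the NF-kB consensus, 42.6% GGGCGG, 32.0% CCAAT and 10.7% TATAAA. Promoters were matched for 26 of the 36 genes, by 42 starts, since some genes have several. The NF-kB consensus occurs in 7 of these 42 stretches (16.7%) and GGGCGG in 27 (64.3%), to be read against the shares above, which are also per stretch. By gene, the NF-kB consensus occurs at a start of 7 genes, which include 1 of the 2 higher genes (BIRC3), 2 of 7 lower genes (FAS, by another start than the one printed, and CFLAR) and 3 of 12 within 2-fold. GGGCGG occurs at a start of 19 genes, with 1 of 2 higher, 5 of 7 lower and 11 of 12 within 2-fold. A match is a run of letters and does not show that a factor binds there.

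Other genes of the pathway were described from 5 lists of 119 genes, of which 115 were in the table and 83 were above background. Of these 83, 2 were 2-fold higher (2.41%, where all genes had 6.94%) and 6 were 2-fold lower (7.23%, where all genes had 7.06%). Their median log2 ratio was 0.02, near that of all genes.

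Among 13 further receptors of the TNF receptor superfamily above background, 2 were lower (15.4%) and none was higher. Over all genes, 7.06% were lower and 6.94% higher. LTBR, the lymphotoxin beta receptor, had 8.10 in LBH589-treated cells and 49.0 in control cells, 6.05-fold lower. EDAR, the ectodysplasin receptor, which carries a death domain, had 9.28 in LBH589-treated cells and 45.5 in control cells, 4.91-fold lower. Both decreases were larger than that of any of the 36 genes. CD40, a receptor of antigen-presenting and epithelial cells, had 17.6 in LBH589-treated cells and 9.60 in control cells, short of 2-fold. Of 6 further ligands above background, none passed 2-fold, where 14.0% of all genes did. The TNF gene itself was at the edge of background, with 5.38 in LBH589-treated cells and 4.94 in control cells.

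Among 38 further components and regulators of death receptor complexes above background, 2 were higher (5.26%) and 1 was lower (2.63%). Over all genes, 6.94% were higher and 7.06% lower. Both higher genes remove or edit ubiquitin chains in the complex that RIPK1 and BIRC3 belong to. CYLD, a deubiquitinase, had 31.6 in LBH589-treated cells and 10.7 in control cells, 2.95-fold higher. TNFAIP3 (A20), a ubiquitin-editing enzyme, had 21.5 in LBH589-treated cells and 8.50 in control cells, 2.53-fold higher. HIPK3, a kinase reported to phosphorylate FADD, was 3.23-fold lower, with 21.6 in LBH589-treated cells and 69.8 in control cells.

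The other 35 genes of this list above background lay within 2-fold, and 5 were not above background. TRAF2, which carries the cIAP proteins to the receptor, had 15.0 in LBH589-treated cells and 15.7 in control cells. RNF31, a subunit of the linear ubiquitin ligase, had 43.2 in LBH589-treated cells and 27.4 in control cells by its brighter probe set, and a dimmer probe set had 7.94 and 5.24 in the same order. Its partners RBCK1 and SHARPIN had 45.8 and 44.2 in LBH589-treated cells, against 50.2 and 40.6 in control cells. TNIP1, an adaptor of A20, came closest to the threshold, with 9.63 in LBH589-treated cells and 18.4 in control cells (1.91-fold lower).

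In the list of other caspases, IAP antagonists and apoptosome genes, 19 genes were above background. Of these, 2 were lower (10.5%, where all genes had 7.06%) and none was higher (6.94% of all genes). The lower genes were CARD8, a CARD-domain sensor of pyroptosis, with 6.79 in LBH589-treated cells and 15.4 in control cells, and AVEN, an inhibitor of apoptosome activation, with 6.50 in LBH589-treated cells and 14.5 in control cells. APAF1, the scaffold of the apoptosome, had 36.0 in LBH589-treated cells and 33.7 in control cells. HTRA2, a mitochondrial protease that antagonises IAPs, had 35.4 in LBH589-treated cells and 18.9 in control cells (1.87-fold higher), and DIABLO, another IAP antagonist, had 39.6 in LBH589-treated cells and 34.1 in control cells. The apoptosome scaffold and these 2 IAP antagonists were therefore within 2-fold.

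Most inflammasome and pyroptosis genes in the table, 13 of 20, were not above background. The cytokine gene IL18, whose product inflammatory caspases mature, sat at the threshold, with 59.0 in LBH589-treated cells and 119 in control cells (2.01-fold lower). The gasdermin GSDMD, the pore protein cut by CASP4, was near background, with 5.05 in LBH589-treated cells and 5.63 in control cells.

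**Figure D3:**
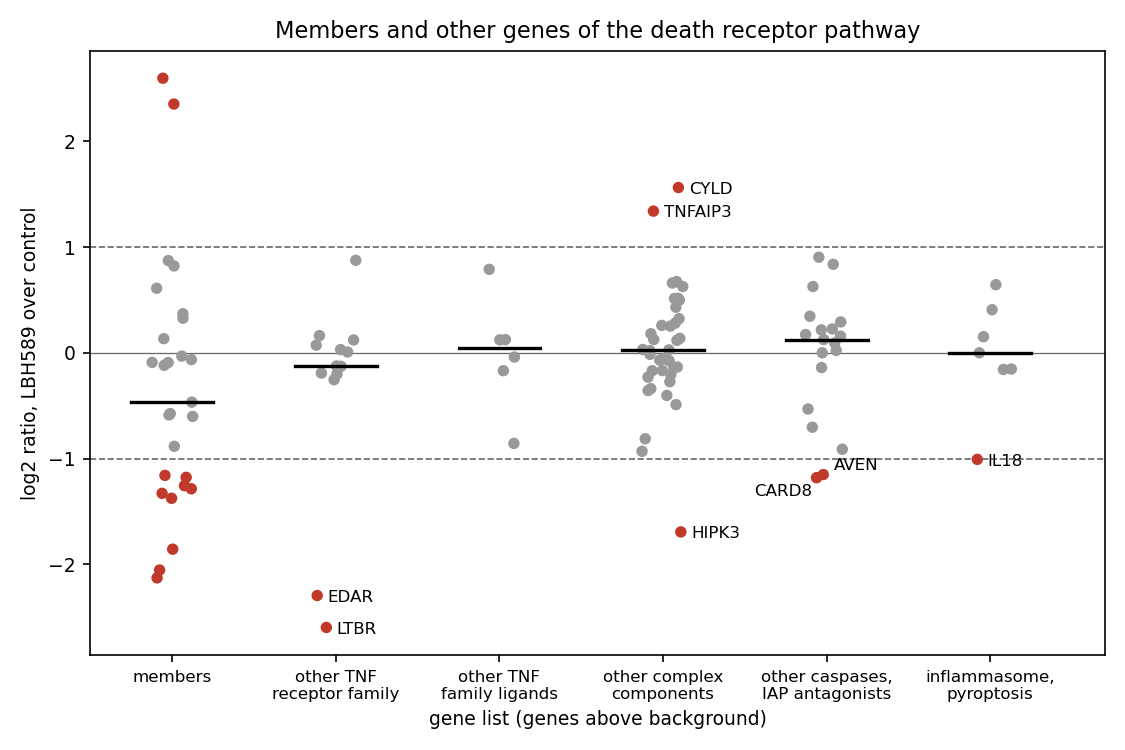
Log2 ratio of LBH589 over control for genes above background, with the 27 members on the left and the 5 other pathway lists beside them; bars are medians, red marks genes past 2-fold (dashed lines), and horizontal jitter separates points. The members' median is -0.47, or -0.29 for those above background on both arrays. The medians of the other lists, without that stricter filter, lie between -0.12 and 0.13.

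The size of a ratio from dim signals depends on what is taken as zero. With 50 added to each intensity, which exceeds most of these signals, RIPK1 remained 2-fold higher at a log2 ratio of 1.65. BIRC3 was then at 0.62, and none of the 9 lower genes reached 2-fold, with CASP6 the furthest at -0.74. With a floor of 16, RIPK1 was at 2.35, BIRC3 at 1.18, CASP6 at -1.80, TNFRSF10A at -1.74, XIAP at -1.38, TNFRSF1A at -1.29 and TNFRSF10D at -1.18, all past 2-fold. FAS was at -0.47 with that floor, and MLKL, CFLAR and CASP4 did not reach it on either array. RIPK1 was thus the only one of the 11 that passed 2-fold under each of the alternatives tried.

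**Figure D4:**
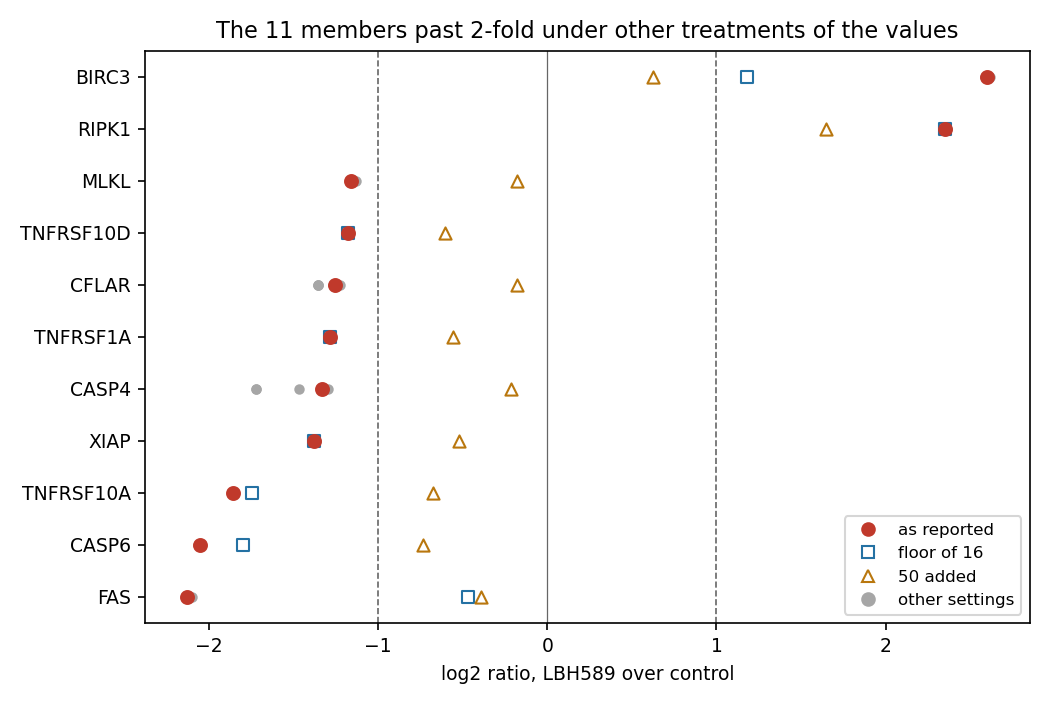
Log2 ratio of LBH589 over control for the 11 genes past 2-fold, as reported (red circles), with a floor of 16 (squares), with 50 added to each intensity (triangles) and under the other settings (grey). RIPK1 stays beyond the dashed 2-fold lines throughout, and with 50 added the other 10 lie inside them.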

How the data were processed

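The authors deposited 1 intensity per probe set and array on a linear scale, made with gene-level RMA per the file headers, whereas the submitters' processing notes name MAS5. The sources used here name no array design, software version or genome build. Per the labels' protocols, column-purified total RNA was turned into biotin-labelled cRNA in 1 cycle. The fold deposited by the authors equals the ratio of LBH589 to control intensity in all rows (tolerance 1e-06), and the series' value table holds the same intensities under the sample names, which fixes the direction.

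Probe sets without a symbol (11234) or with differing symbols were left out. Of 199 with several entries, 79 repeat 1 symbol and were kept. Symbols were updated with RefSeq (GRCh38.p14): 18276 probe sets by accession, 1135 by symbol, 1045 by an older symbol, and 1487 kept as listed. The probe set with the highest mean intensity stood for a gene. Each of the 36 genes was matched by its symbol in the table.

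The genes, lists, background rule and 2-fold size were chosen with earlier results of these data known. Every gene of the set above background is named, and from the pathway lists those past 2-fold; other list genes were named after their values were seen, and some list genes are not reported here. No statistical test was possible. The fold step was tested on simulated data for bright genes only, so raising a value to background was not part of that test. Alternatives were another probe set rule, dropping repeated entries, floors at percentile 20 and at 16, 50 added, centring, quantile normalization, detection on both arrays, no filter, the value table, and sizes of 1.5-fold and 3-fold; a background pooled over both arrays was added after seeing the data. The work used Python 3.11.15, numpy 2.4.6, pandas 2.3.3 and matplotlib 3.10.9.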

Additional observations from a re-analysis of the deposited data

How the results depend on the processing

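The count of 2 higher genes held under 11 of 13 alternatives and was 1 with 50 added (1.09% of all genes) and 5 at 1.5-fold (16.4% of all genes). Some alternatives could not alter these counts. Another probe set rule has no effect on genes with 1 probe set each, and the value table holds the same intensities. Dropping repeated entries also left every gene of the set as it was. The count of 9 lower genes was 5 with a floor of 16 (7.95% of all genes), 0 with 50 added (1.16%) and 3 at 3-fold (2.57%), and lay between 7 and 12 under the rest, with the 12 at 1.5-fold (15.1%). The median log2 ratio of -0.47 was -0.12 with a floor at percentile 20, -0.062 with 50 added and -0.081 with no filter and no floor; the first and the last also admit genes of the set below background. A value was taken as moved where it differed by more than 0.18, the SD of the olfactory receptor log2 ratios. None of the 11 genes past 2-fold changed direction under any alternative. A floor, an added constant or a filter cannot reverse a ratio, so this says little about how stable the directions are. No paired analysis was possible because each condition has 1 array. Signals near 4.88 limit FAS, MLKL, CFLAR, CASP4 and the control value of BIRC3.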

Other observations

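The genes that flank the 11 members past 2-fold were read in the order of protein-coding genes in RefSeq (GRCh38.p14), used for order only. Of 22 flanking genes, 17 were above background. Of these, 5 were past 2-fold in the direction of the member, 1 in the other direction and 11 within 2-fold. Of all genes, 14.0% were past 2-fold in either direction, with 6.94% higher and 7.06% lower. The adjacent pair TNFRSF10A and TNFRSF10D accounts for 2 of the 5. Both were chosen for being past 2-fold, so those 2 were fixed by the choice of genes. RIPK1 is flanked by NQO2, a quinone reductase, and BPHL, a hydrolase, and both were higher as well. NQO2 had 114 in LBH589-treated cells and 37.8 in control cells, 3.01-fold higher, and BPHL had 36.5 in LBH589-treated cells and 12.3 in control cells, 2.98-fold higher. The next gene beyond NQO2, the serpin SERPINB6, was 2.65-fold lower, with 60.1 in LBH589-treated cells and 159 in control cells, and beyond BPHL the tubulin TUBB2A had 166 in LBH589-treated cells and 107 in control cells. The run of higher genes around RIPK1 was therefore 3 genes long at 2-fold.

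BIRC3 lies between YAP1, a coactivator of the Hippo pathway, and BIRC2. YAP1 was 3.06-fold lower, with 49.7 in LBH589-treated cells and 152 in control cells, opposite to BIRC3. XIAP lies between THOC2, with 97.3 in LBH589-treated cells and 99.2 in control cells, and the cohesin gene STAG2, which was 3.89-fold lower, with 26.0 in LBH589-treated cells and 101 in control cells. FAS lies between ACTA2, with 11.6 in LBH589-treated cells and 19.5 in control cells, and CH25H, which was not above background. Farther from FAS, IFIT2 and LIPA are named for the size of their ratios. The interferon-induced gene IFIT2, with 2 genes between, was 5.16-fold lower, with 6.31 in LBH589-treated cells and 32.6 in control cells. The lysosomal lipase gene LIPA, with 1 gene between, was 3.53-fold higher, with 464 in LBH589-treated cells and 132 in control cells. TNFRSF1A and LTBR, both lower, have 1 gene between them. CFLAR, CASP10 and CASP8 are consecutive, and of these only CFLAR was past 2-fold, by at least 2.39-fold.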
